A study of Mus musculus with 6 samples.

Results

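The 38 genes described here are the immediate-early and delayed activity-regulated genes of neurons, followed in cerebellar granule neurons after knockdown of Kdm6b. They were chosen by name from general knowledge of activity-induced transcription, at a time when earlier results of these data were known. Shares of members set against all genes below are therefore descriptive. All 38 were found among the 23366 genes of the count table. All 38 also passed the filter on low counts that left 15731 genes for testing. The lowest count of any member in any library was 51.

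Immediate-early genes are switched on within minutes of a stimulus without new protein synthesis. In neurons, calcium entry and growth factor receptors act through the kinases ERK and CaMK on transcription factors already bound at the promoter, such as CREB and SRF. The first genes to respond encode transcription factors (the Fos, Jun, Egr and Nr4a families and Npas4), which then act on a later set of genes for synaptic, secreted and signalling proteins. Several members, among them the dual-specificity phosphatases, switch the same signalling off again.

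Stranded mRNA-seq was performed on cultured granule neurons from cerebella of C57BL/6 mice at postnatal day 7, grown in a medium with serum and B27 supplement. Control cultures (n = 3) were infected on day 1 in vitro with lentivirus carrying the empty pLKO.1 vector. Knockdown cultures (n = 3) received pLKO.1 carrying a hairpin (shRNA) directed at Kdm6b, which encodes a histone H3 lysine demethylase. The submitters describe biological triplicates and do not say that replicates came from separate litters. Brain-derived neurotrophic factor (BDNF), a ligand whose receptor feeds the ERK pathway, was added to certain cultures, and the sources used here do not name them. No other stimulus is named in the labels, and the controls carry an empty vector rather than a non-targeting hairpin.

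Gene counts per library ranged from 50326298 to 88214069. Kdm6b itself was at 257, 146 and 170.5 CPM (counts per 1000000 of the TMM-scaled library size) in control replicates 1 to 3 and at 88.8, 63.3 and 79.8 CPM in knockdown replicates 1 to 3 without overlap (log2 fold change −1.28, SE 0.11, edgeR adjusted p = 0.0282 with the replicate block described next and 0.216 without). The 10 highest genes took 12.6% of gene counts in control replicate 3 and 5.39% to 7.73% in the other libraries. Granule neuron markers were abundant in every library, with Rbfox3 at 366 to 696 CPM and Zic1 at 888.5 to 1307 CPM, and Gad1, a marker of inhibitory neurons, had 3628 to 11918 counts. Of the Purkinje cell markers, Pcp2 had 0 to 2 counts, Calb1 87 to 565 and Car8 35 to 557. Summed pericyte and fibroblast markers stood at 14111 to 27904 CPM in controls, above the summed granule neuron markers (5091 to 7121 CPM). In knockdowns these sums were 4904 to 13152.5 and 5101 to 7324 CPM. Sums over different genes do not give shares of cells. Deviations from the group mean were shared by libraries of equal replicate number (correlation 0.70 to 0.77 across genes). The comparison is therefore given both without and with the replicate number as a block, and a pair below means the 2 libraries, control and knockdown, that carry the same number.

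The 38 genes did not move in 1 direction. With the block, the Fos-family genes Fosl1 and Fosl2, the Krüppel-like factor gene Klf4 and the secreted-protein genes Nptx1 and Inhba were lower in the knockdown (log2 fold changes of −1.32 to −0.70), and the AP-1 gene Jund and the antiproliferative gene Btg2 were higher (0.51 and 0.60). Without the replicate number in the model, 0 of the 38 members passed an adjusted p of 0.05 (edgeR quasi-likelihood test, Benjamini-Hochberg over 15731 genes), where 0.00636% of all genes (1 gene, Fndc3a, named after its values were seen) did so. At an unadjusted p of 0.05, 7 members (18.4%) passed against 10.6% of all genes, and DESeq2 called 3 members (Fosl2, Egr2 and Jund) against 3.61% of all genes. With the block, 7 members (18.4%) were called against 7.98% of all genes, and 15 members (39.5%) had an unadjusted p under 0.05, near the share of all genes (34.1%). The 5 lower genes are 13.2% of members, against 5.40% of all genes, and the 2 higher genes 5.26%, against 2.58%. With library totals in place of TMM scaling, the block gave 723 higher and 553 lower genes rather than 406 higher and 850 lower, and Fosl2 and Inhba were no longer called. From here on "fell" and "rose" mean an adjusted p under 0.05 with the block. None of the 7 was called when replicate 1 or replicate 2 was left out of both groups, with the block kept. Over all genes these fits called 0 of 15639 and 53 of 15987 (0.332%). Without replicate 3 the calls were Fosl1, Fosl2, Klf4, Egr1 and Egr3, all lower. That fit called 8.06% of all genes (1047 lower and 225 higher of 15788). Summed pericyte and fibroblast markers were also lower in the knockdown, at 4904 to 13152.5 CPM against 14111 to 27904 CPM in controls, and their part in the lower levels of members was not tested.

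The median log2 fold change of the members was −0.22 without and −0.13 with the block, beside 0.02 for all genes in both fits. It was 0.01, −0.39 and −0.12 within pairs 1, 2 and 3, and, without the block, −0.05 when control replicate 1 and −0.08 when control replicate 2 was left out. Of the 38 members 15 (39.5%) were lower in the knockdown in all 3 pairs, against 28.4% of all genes, and 10 (26.3%) were higher in all 3 pairs, against 31.6%. Groups did not overlap for 3 members with lower knockdown values (Fosl2, Egr2 and Nr4a1; 7.89%, against 7.44% of all genes). The same held for 4 members with higher knockdown values (Jun, Jund, Crem and Btg2; 10.5%, against 9.21% of all genes). These shares of non-overlapping groups lie near those of all genes.

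**Figure D1:**
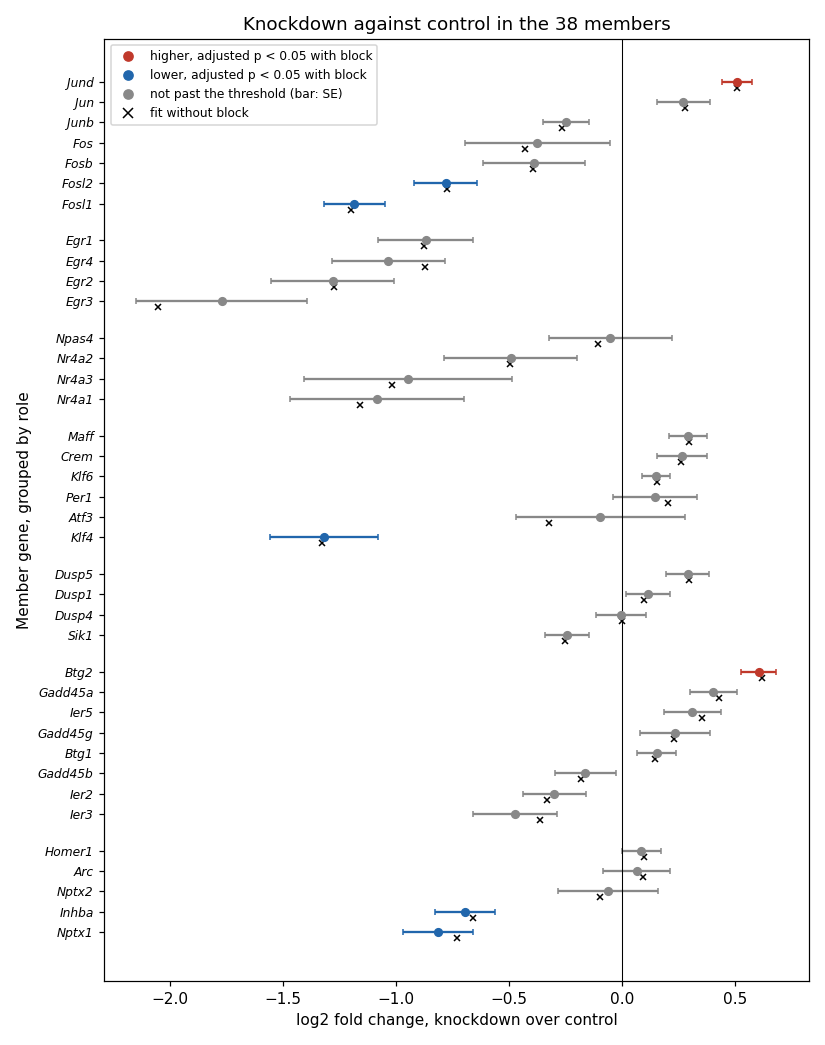
Log2 fold change of knockdown over control for the 38 members grouped by role, from the fit with the replicate block (points, bars are 1 SE, n = 3 per group) and without it (crosses). Blue points (Klf4, Fosl1, Nptx1, Fosl2 and Inhba) and red points (Jund and Btg2) passed an adjusted p of 0.05 with the block; all 4 Egr genes lie left of 0 in grey.

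The promoters of 28 of the 38 members were present in the RefSeq table used here (build GRCm38.p6), which gives 250 bases before and 50 after each start site. Fosl1, Egr1, Egr3, Crem, Dusp4, Sik1, Ier2, Arc, Nptx1 and Nptx2 had no entry. Both strands were searched for the letters of sites known from activity-induced genes. The 8-letter cAMP response element TGACGTCA lay in 3 of the 28 members (10.7%; Maff, Dusp1 and Btg2) and in 2.03% of 27025 genes. Its core TGACG, which each full site also contains, lay in 18 members (64.3%) and 23.05% of genes. The Egr site GCGGGGGCG lay in 4 members (14.3%; Fosb, Fosl2, Nr4a1 and Klf4) and 3.31% of genes. The CArG box of SRF lay in 2 members (7.14%; Egr2 and Dusp5) and 1.81% of genes, and the AP-1 letters TGANTCA in 0 of 28 members and 8.97% of genes. These are matches of letters, not measured binding.

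The 250 bases before the start site are shown for 3 called members that hold a match, and for Egr2 as the Egr member with a CArG box. In build GRCm38 the GENCODE M21 annotation places Klf4 at chr4:55527143-55532466, Fosl1 at chr19:5447547-5455946, Nptx1 at chr11:119538719-119547753, Fosl2 at chr5:32135801-32157842, Inhba at chr13:16011851-16031621, Jund at chr8:70698949-70700616 and Btg2 at chr1:134075170-134079120. Bases are written 5′ to 3′ on the gene's strand in build GRCm38.p6, with the matches in capitals. Btg2 (chr1:134079156-134079405, minus strand), which rose, has a full cAMP response element 166 to 159 bases before its start. Fosl2 (chr5:32136222-32136471, plus strand), which fell, has an Egr site 79 to 71 bases before its RefSeq start. That window lies within the span GENCODE M21 gives Fosl2, so the site is not upstream of the outermost GENCODE start. Klf4 (chr4:55532476-55532725, minus strand), which fell, has the core TGACG at 232 to 228 and an Egr site at 194 to 186 bases, both on the opposite strand. Egr2 (chr10:67537619-67537868, plus strand, 1 of 5 windows listed for the gene) has a CArG box at 72 to 63 bases. The box lies between a TGACG core at 111 to 107 bases and another, on the opposite strand, at 55 to 51 bases. GENCODE M21 places Egr2 at chr10:67535475-67542188, so this window also lies within the annotated gene.
Btg2: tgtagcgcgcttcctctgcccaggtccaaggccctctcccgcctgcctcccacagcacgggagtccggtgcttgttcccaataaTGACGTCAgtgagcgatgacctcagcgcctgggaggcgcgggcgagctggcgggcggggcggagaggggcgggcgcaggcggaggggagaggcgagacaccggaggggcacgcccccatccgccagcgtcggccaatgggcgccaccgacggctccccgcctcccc
Fosl2: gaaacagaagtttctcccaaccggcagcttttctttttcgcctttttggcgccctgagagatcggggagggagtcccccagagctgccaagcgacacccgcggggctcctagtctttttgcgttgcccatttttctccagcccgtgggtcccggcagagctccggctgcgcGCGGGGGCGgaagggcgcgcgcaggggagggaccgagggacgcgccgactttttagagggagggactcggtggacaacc
Klf4: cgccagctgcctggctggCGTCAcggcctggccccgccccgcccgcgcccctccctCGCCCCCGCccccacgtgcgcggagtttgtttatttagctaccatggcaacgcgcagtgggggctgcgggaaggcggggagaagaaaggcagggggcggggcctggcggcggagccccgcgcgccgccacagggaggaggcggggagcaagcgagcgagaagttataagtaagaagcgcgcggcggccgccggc
Egr2: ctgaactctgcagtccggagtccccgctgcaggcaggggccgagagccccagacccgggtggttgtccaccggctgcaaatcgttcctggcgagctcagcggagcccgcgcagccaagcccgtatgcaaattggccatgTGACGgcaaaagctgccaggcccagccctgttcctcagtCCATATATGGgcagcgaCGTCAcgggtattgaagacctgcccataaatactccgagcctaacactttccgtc

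Per kilobase of annotated exon, Jund was the most abundant member in controls at 112 ± 10.4 CPM per kilobase (SD, n = 3), followed by Nptx1 at 83.1 ± 33.3 and the antiproliferative gene Btg1 at 70.1 ± 22.6 CPM per kilobase. The next were the ERK phosphatase gene Dusp5 (58.4 ± 11.5), Ier3 (50.3 ± 22.7) and Jun (49.6 ± 3.46 CPM per kilobase). Among these genes, from Jund to Jun, neighbours in the order differed by less than the SD of the more variable one. Fosb (0.254 ± 0.0563), Npas4 (0.291 ± 0.103) and Nr4a3 (0.412 ± 0.198 CPM per kilobase) were the lowest. Arc, the activity-induced postsynaptic gene often used to mark stimulated neurons, stood at 1.44 ± 0.366 and Fos at 9.40 ± 4.01 CPM per kilobase. The order of the 38 members was nearly the same in the knockdown (Spearman 0.962 across genes, which share their libraries).

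**Figure D2:**
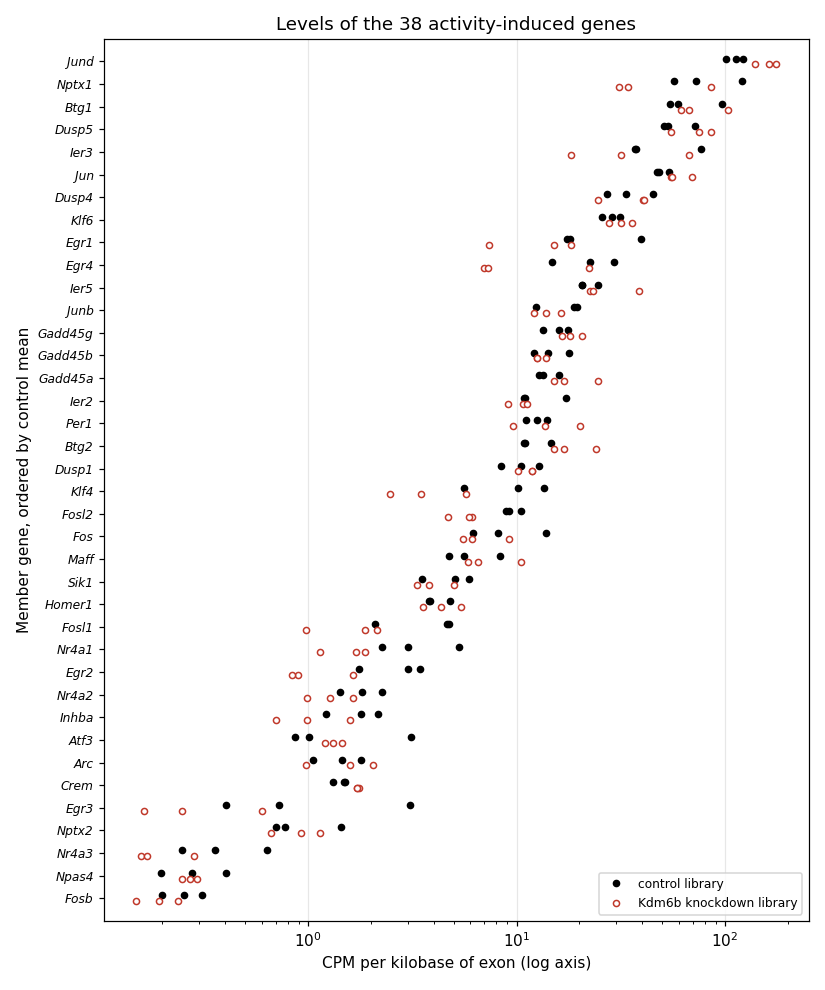
CPM per kilobase of exon (log axis) of each member in the 3 control libraries (black) and the 3 knockdown libraries (open red), with members ordered by the control mean. Levels run from 0.254 CPM per kilobase for Fosb to 112 for Jund, and the widest spread among controls is that of Egr3.

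AP-1 is a dimer of a Fos and a Jun protein, and its 7 subunit genes split. Fosl2 stood at 88.9, 101 and 85.6 CPM in control replicates 1 to 3 and 59.0, 45.2 and 56.9 CPM in the knockdowns. Every knockdown value lay below every control value, with a log2 fold change of −0.78 (SE 0.14, adjusted p = 0.0452 with the block and 0.216 without). Fosl1 was at 9.42, 9.61 and 4.25 CPM in controls versus 3.79, 4.36 and 1.99 CPM in knockdowns. It was lower in each pair by a similar ratio (−1.18, SE 0.13, adjusted p = 0.0282 with the block and 0.439 without), although control replicate 3 lay below knockdown replicate 2. Jund rose, from 203, 188 and 169 CPM to 294, 271 and 233 CPM. All 3 knockdown values exceeded the highest control value (0.51, SE 0.07, adjusted p = 0.0319 with the block and 0.337 without). Exons of Fosl1 and Jund overlap genes on the opposite strand (Ccdc85b and Gm11175), as do those of Jun (Junos), Junb (Prdx2), Crem (Gm6225), Dusp1 (Ergic1), Dusp5 (AC137853.2) and Gadd45a (E230016M11Rik). The sources used here do not state whether counting used strand, so the levels of these 8 members are uncertain.

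Jun, a partner of Fos in AP-1, was at 150.2, 171 and 154 CPM in controls versus 221, 176 and 178 CPM in knockdowns. The groups did not overlap, but the difference did not pass with the block (0.27, SE 0.12, adjusted p = 0.177). Fos itself was at 19.1, 32.7 and 14.5 CPM in controls versus 21.7, 13.03 and 14.4 CPM in knockdowns. The groups overlapped and the pairs disagreed, with pair 1 higher and pair 2 lower in the knockdown (−0.38, SE 0.32, adjusted p = 0.448). Junb (−0.25, SE 0.10) and the low-level Fosb (−0.39, SE 0.22) were lower in all 3 pairs and did not pass. The summed level of the 7 AP-1 genes was 457 to 550 CPM in controls and 513 to 633 CPM in knockdowns, mostly from Jund and Jun.

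The 4 Egr genes encode zinc finger factors and are induced through ERK and SRF. Each was lower in the knockdown in all 3 pairs, as were 28.4% of all genes. None of the 4 passed the adjusted edgeR test in either fit. All 4 had an unadjusted p under 0.05 with the block, as did 34.1% of all genes. The call depended on the model: DESeq2 with the block, which called 21.9% of all genes, called all 4 (adjusted p = 0.00032 for Egr1, 0.00014 for Egr2, 8.5e-05 for Egr3 and 0.00028 for Egr4). The block without a filter on low counts, which called 8.13% of all genes, called Egr2 and Egr3 (edgeR adjusted p = 0.0437 and 0.0432). Egr1 was at 78.1, 176 and 81.1 CPM in controls versus 33.2, 81.7 and 68.0 CPM in knockdowns (−0.87, SE 0.21, adjusted p = 0.0671 with the block and 0.536 without). Egr2 was at 5.99, 11.6 and 10.2 CPM in controls versus 3.03, 2.84 and 5.60 CPM in knockdowns, without overlap (−1.28, SE 0.27, adjusted p = 0.0560 with the block and 0.380 without). DESeq2 without the block gave Egr2 an adjusted p of 0.0490. Egr3 stood at 3.19, 13.5 and 1.77 CPM in controls versus 0.716, 2.65 and 1.10 CPM in knockdowns (−1.77, SE 0.38, adjusted p = 0.0565 with the block). Its control values spanned 7.65-fold, the highest being control replicate 2. Egr4 was at 48.1, 63.3 and 31.8 CPM in controls versus 15.0, 47.7 and 15.7 CPM in knockdowns (−1.03, SE 0.25, adjusted p = 0.0677 with the block). The sum of the 4 genes was 125 to 265 CPM in controls and 51.9 to 135 CPM in knockdowns, so the groups overlapped, and it was lower in each pair. Leaving out replicate 3 from both groups brought Egr1 and Egr3 past the threshold (edgeR adjusted p = 0.0194 with the block for both). That fit called 8.06% of all genes.

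The Nr4a genes encode orphan nuclear receptors that are induced early and bind DNA without a known physiological ligand. Nr4a1 was at 10.6, 18.6 and 7.97 CPM in controls versus 6.61, 4.01 and 5.97 CPM in knockdowns. Its groups did not overlap, and its differences ranged widely between pairs (−1.08, SE 0.38, adjusted p = 0.127 with the block and 0.392 without). Nr4a2 (5.78, 9.23 and 7.36 against 6.70, 4.01 and 5.15 CPM) and Nr4a3 (1.49, 3.78 and 2.13 against 1.69, 0.947 and 1.01 CPM) were higher in the knockdown in pair 1 and lower in the other pairs. Npas4, a factor induced by calcium entry in neurons, was at 0.812, 1.66 and 1.14 CPM in controls versus 1.12, 1.21 and 1.02 CPM in knockdowns, with overlapping groups (−0.05, SE 0.27). Of these 4 genes 0 passed the edgeR test in either fit. In each fit 1 (Nr4a1) had an unadjusted p under 0.05, as did 10.6% of all genes without and 34.1% with the block.

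**Figure D3:**
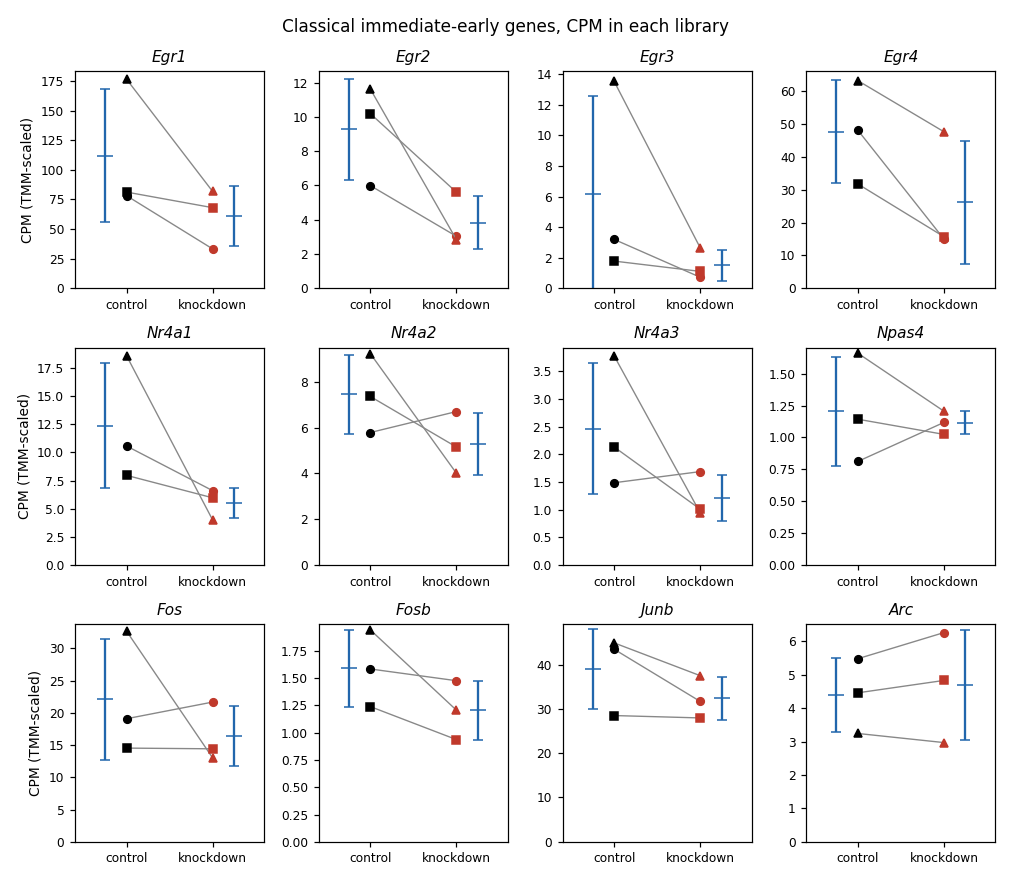
CPM (TMM-scaled, linear axes from 0) of 12 classical immediate-early genes by library; grey lines connect the libraries of a pair (circle, triangle and square for replicates 1, 2 and 3) and blue marks show the mean and SD, n = 3. Control replicate 2 is the highest control library in all panels but Arc, and the Egr lines all slope down.

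Control replicate 2 was the highest of the 3 controls for 23 of the 38 members, and control replicate 3 for 1. In the knockdown group replicate 1 was highest for 20 members, replicate 2 for 14 and replicate 3 for 4. Across the members, the deviations of same-numbered control and knockdown libraries correlated at 0.49 to 0.55, over 38 genes that share those libraries. The 4 Egr genes, Fos and the 3 Nr4a genes all had their highest control value in replicate 2. Without control replicate 2 the fitted log2 fold change of Fos, Egr1 and Egr3 was −0.04, −0.39 and −0.74 without the block, against −0.43, −0.88 and −2.06 with all libraries.

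Of the 6 other inducible transcription factors 1 fell, where 5.40% of all genes did. This gene, Klf4, was at 17.0, 41.4 and 31.0 CPM in controls versus 7.51, 10.6 and 17.5 CPM in knockdowns. Each pair was lower, while knockdown replicate 3 lay just above control replicate 1 (−1.32, SE 0.24, adjusted p = 0.0453 with the block and 0.392 without). Klf6, a related factor at a higher level, was at 126, 138 and 113 CPM in controls versus 139, 157 and 121 CPM in knockdowns, within the spread of the groups (0.15, SE 0.06). Crem, a CREB family gene whose short inducible product ICER represses cAMP-driven transcription, was at 8.89, 7.76 and 8.73 CPM in controls versus 10.3, 10.1 and 10.1 CPM in knockdowns. The groups did not overlap and the test was not passed (0.26, SE 0.11, adjusted p = 0.167), and counts per gene do not separate ICER from the full-length transcripts. The small Maf gene Maff was at 21.5, 12.2 and 14.6 CPM in controls versus 27.1, 15.2 and 17.0 CPM in knockdowns. It was higher in all 3 pairs with overlapping groups (0.29, SE 0.08, adjusted p = 0.0896 with the block). The stress-induced factor Atf3 (−0.10, SE 0.37) and the clock gene Per1 (0.14, SE 0.19) differed in direction between pairs. Atf3 was at 6.68 CPM in control replicate 1 and at 1.86 to 3.12 CPM in the other libraries.

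The 4 feedback genes of signalling showed small differences, with 0 called in either edgeR fit. With the block 1 (Dusp5) had an unadjusted p under 0.05, as did 34.1% of all genes. Dusp5, a nuclear phosphatase of ERK, was at 177, 131 and 125 CPM in controls versus 212, 184 and 136 CPM in knockdowns (0.29, SE 0.09, adjusted p = 0.111 with the block). It was higher in all 3 pairs with overlapping groups. Dusp4 was at 96.6 ± 24.7 CPM in controls and 96.6 ± 25.1 CPM in knockdowns (SD, n = 3; log2 fold change −0.01, SE 0.11). Dusp1 (0.11, SE 0.10), a phosphatase of several MAP kinases, and Sik1 (−0.24, SE 0.10), a kinase that restrains CREB coactivators, did not pass.

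Of the 8 growth arrest and immediate-early response genes, Btg2 rose and none fell, where 2.58% of all genes rose and 5.40% fell. Btg2, an antiproliferative gene and p53 target, was at 29.7, 40.2 and 30.1 CPM in controls versus 41.3, 65.8 and 46.3 CPM in knockdowns. The lowest knockdown value lay just above the highest control value (0.60, SE 0.08, adjusted p = 0.0319 with the block and 0.427 without). Gadd45a, a stress and DNA damage gene, was at 28.2, 23.5 and 22.6 CPM in controls versus 43.6, 29.6 and 26.7 CPM in knockdowns (0.40, SE 0.10, adjusted p = 0.0727 with the block). Ier5 (0.31, SE 0.12) and Btg1 (0.15, SE 0.09) were also higher in all 3 pairs, and Ier2 (−0.30, SE 0.14) and Ier3 (−0.47, SE 0.18) lower in all 3 pairs, without passing. Ier3 differed more between replicate numbers than between groups, at 86.5, 41.8 and 42.2 CPM in controls versus 76.1, 20.7 and 35.8 CPM in knockdowns. Gadd45b (−0.16, SE 0.13) and Gadd45g (0.23, SE 0.15) overlapped between groups.

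Of the 5 synaptic and secreted effectors 2 fell and 0 rose, where 5.40% of all genes fell and 2.58% rose. Nptx1, a secreted pentraxin that gathers AMPA receptors at synapses, was at 378, 628 and 295 CPM in controls versus 162, 445 and 178 CPM in knockdowns. The spread between replicate numbers exceeded the difference between groups, so the call rests on the pairs (−0.82, SE 0.16, adjusted p = 0.0488 with the block and 0.614 without). Inhba, which encodes a subunit of activin, was at 7.75, 13.8 and 11.4 CPM in controls versus 4.49, 10.1 and 6.31 CPM in knockdowns, lower in each pair and overlapping between groups (−0.70, SE 0.13, adjusted p = 0.0486 with the block and 0.562 without). The related pentraxin Nptx2 (3.63, 1.78 and 1.96 against 2.88, 2.34 and 1.68 CPM) overlapped (−0.06, SE 0.22). Arc was at 5.48, 3.24 and 4.46 CPM in controls versus 6.26, 2.97 and 4.83 CPM in knockdowns (0.06, SE 0.15). Homer1, a scaffold of metabotropic glutamate receptors, was at 57.1, 46.1 and 45.5 CPM in controls versus 64.7, 52.0 and 42.5 CPM in knockdowns (0.08, SE 0.09). Its short activity-induced form is not separated from the long forms in counts per gene.

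**Figure D4:**
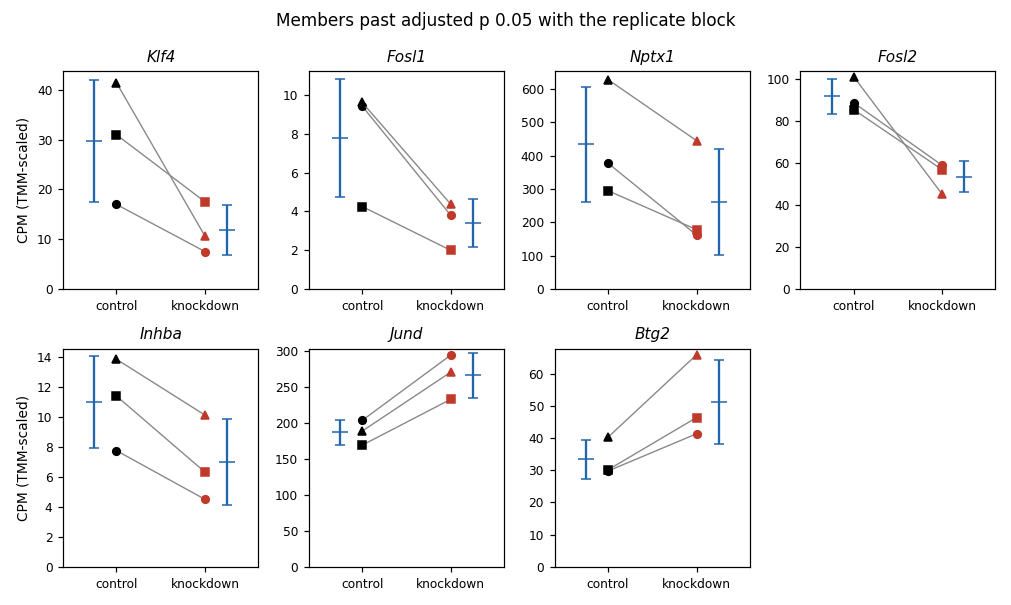
CPM (TMM-scaled, linear axes from 0) of the 7 members called with the replicate block, by library; grey lines connect the libraries of a pair (circle, triangle and square for replicates 1, 2 and 3) and blue marks show the mean and SD, n = 3. Lines of Klf4, Fosl1, Nptx1, Fosl2 and Inhba slope down and those of Jund and Btg2 up in each pair; only Fosl2, Jund and Btg2 of these have groups that do not overlap.

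**Figure D5:**
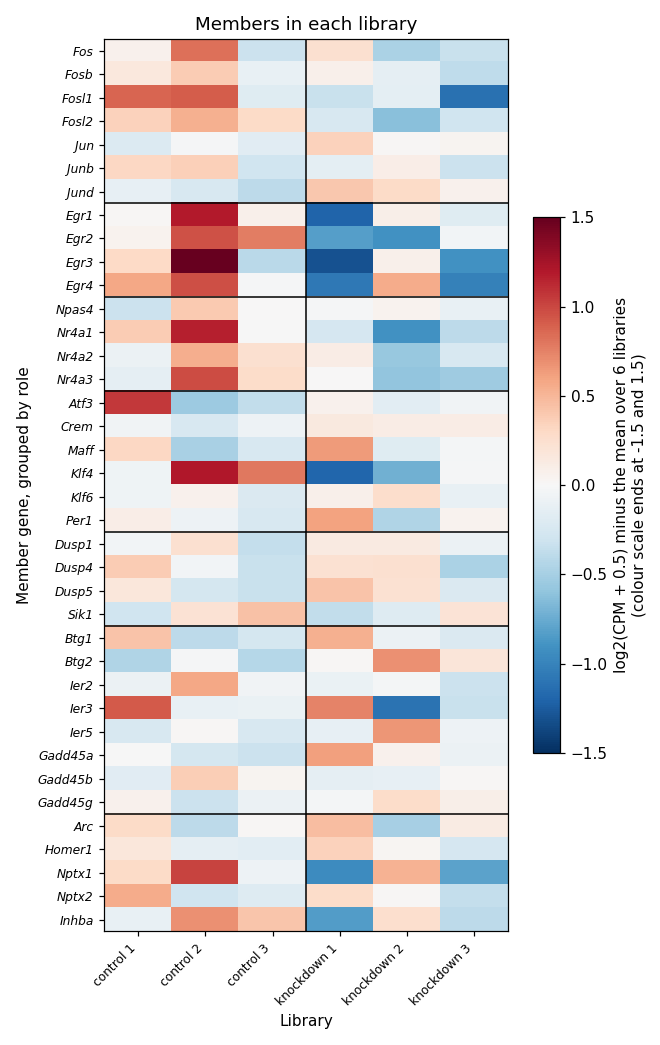
Each member in each library as log2(CPM + 0.5) minus its mean over the 6 libraries, with horizontal lines between role groups and a vertical line between control and knockdown. Red is above and blue below the mean; the Egr and Nr4a rows are reddest in control replicate 2, and Jund is red in all 3 knockdown libraries.

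Genes upstream of the members were examined next. Of 16 genes for CREB, its coactivators, SRF, its partners and MEF2 factors, 2 fell and 0 rose with the block, where 5.40% of all genes fell and 2.58% rose. These were the ternary complex factors Elk3 (34.6 ± 9.13 to 21.1 ± 6.68 CPM, SD, n = 3; −0.73, SE 0.12, adjusted p = 0.0412 with the block and 0.489 without) and Elk4 (29.0 ± 8.05 to 20.3 ± 3.47 CPM, SD, n = 3; −0.49, SE 0.09, adjusted p = 0.0498 with the block and 0.517 without), partners of SRF. The third partner gene, Elk1, was higher in each pair without passing (0.51, SE 0.11, adjusted p = 0.0600 with the block). Srf (0.03, SE 0.08) and Creb1 (0.08, SE 0.09) overlapped between groups. Of 21 calcium and ERK signal transducers 1 fell and 0 rose, near the shares of all genes. Camkk1, a kinase that activates CaM kinases, was at 66.3, 45.8 and 42.4 CPM in controls versus 34.5, 27.2 and 26.8 CPM in knockdowns, without overlap (−0.78, SE 0.08, adjusted p = 0.0282 with the block and 0.324 without). Exons of Elk3 and Elk4 overlap opposite-strand genes (Cdk17 and Mfsd4a). Those of Elk4 and Elk1 also overlap same-strand genes (Gm29103 and Uxt).

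Of 28 further activity-induced genes that are not among the 38, 1 rose and 0 fell with the block, against 2.58% and 5.40% of all genes, and 0 were called without it. The stress-responsive kinase gene Plk3 was at 20.9, 14.4 and 16.6 CPM in controls versus 30.6, 21.6 and 24.6 CPM in knockdowns, without overlap (0.57, SE 0.08, adjusted p = 0.0321 with the block and 0.436 without). Exons of Plk3 overlap Tctex1d4 on the opposite strand. Bdnf, the gene of the factor that was added to certain cultures, was at 8.51, 15.7 and 9.85 CPM in controls versus 7.18, 9.21 and 6.79 CPM in knockdowns. It was lower in each pair with overlapping groups (−0.52, SE 0.14, adjusted p = 0.0824 with the block). Fold changes were negative for 19 of the 28 genes, where 47.9% of all genes had negative ones. The list's median log2 fold change was −0.19 with the block, beside 0.02 for all genes. For the signal transducers it was 0.02 and for the inducing factors −0.09.

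Some members are also expressed outside neurons, so marker levels of other cell types are given beside the calls. In a bulk culture, fewer cells of a type and less RNA per cell cannot be told apart. Of 12 pericyte and fibroblast markers 7 fell with the block and 11 had negative fold changes, against 5.40% and 47.9% of all genes. The same shares of all genes apply to the marker lists below. The summed pericyte and fibroblast levels given above did not overlap between groups. The median log2 fold change of the pericyte and fibroblast markers was −1.18, with −1.10, −1.33 and −1.03 in pairs 1 to 3. Klf4, Fosl1, Fosl2, Nptx1, Inhba, Elk3, Elk4 and the Egr genes are set beside these markers because they were lower in the knockdown. Their shared direction follows from that choice, and Jund, Btg2 and Plk3 rose. Within groups the marker sum was highest in replicate 3 (14111, 24664 and 27904 CPM in controls, 4904, 7726 and 13152.5 CPM in knockdowns). Elk4 ranked as the marker sum did in both groups (21.0, 29.0 and 37.1 CPM in controls, 16.6, 20.9 and 23.5 CPM in knockdowns). Klf4, Elk3, Inhba and Egr1 were also lowest in replicate 1 of both groups, and Fosl1 was lowest in replicate 3 of both. Fosl2, Nptx1, Egr2, Egr3 and Egr4 had their lowest control and lowest knockdown values in different replicates. Ranks of 3 values per group are too few to relate these genes to cell composition, which was not tested. Of 12 granule neuron markers 2 fell (Etv1 and Nfia). The sum of all 12 was 5091 to 7121 CPM in controls and 5101 to 7324 CPM in knockdowns. This similar sum covers opposite differences, as 5 of the 12 were lower and 5 higher in all 3 pairs. Slc17a7 was at 403, 735 and 300 CPM in controls versus 181, 228 and 212 CPM in knockdowns (−1.11, SE 0.24). Reln was at 441, 241 and 493 CPM in controls versus 742, 586 and 548 CPM in knockdowns (0.73, SE 0.23). Neither overlapped between groups, and with the block neither passed (edgeR adjusted p = 0.0562 for Slc17a7 and 0.101 for Reln). Of 10 astrocyte and Bergmann glia markers 1 fell (686 to 3390 CPM in knockdowns, 1226 to 3242 CPM in controls, summed). All 10 had negative fold changes with the block (median −0.21), with medians of −0.78, −0.23 and 0.26 in pairs 1 to 3. Of 10 oligodendrocyte lineage markers all 10 had negative fold changes (median −0.37) and 3 fell (176 to 944 against 257 to 1250 CPM in controls). Cspg4, one of these 3, is also one of the 7 pericyte and fibroblast markers that fell, and Pdgfra is on both lists. Of 10 microglia markers 1 fell, Tmem119 (summed markers 9.86 to 52.6 against 43.8 to 109 CPM in controls). Tmem119 made up 42.7 of the 43.8 CPM in control replicate 2, where C1qa was at 0.120 CPM. In control replicates 1 and 3 Tmem119 was at 15.4 and 56.9 CPM and C1qa at 23.4 and 8.06 CPM. C1qa was at 0.660, 0.0557 and 4.68 CPM in knockdown replicates 1 to 3. The microglia genes Cx3cr1 and Aif1 were at 0 in control replicate 2 and C1qb at 0 in knockdown replicate 2. Of 9 tested proliferating cell markers all 9 had negative fold changes with the block (median −0.93) and 3 fell (92.3 to 475 against 183 to 589 CPM in controls). Of 7 tested interneuron and Purkinje cell markers 2 fell, Gad1 and Car8 (summed markers 113 to 300 against 173 to 417 CPM in controls). On that list 3 markers were lower in all 3 pairs and 1, Gad2, was higher (0.24, SE 0.09, edgeR adjusted p = 0.142 with the block). Of 8 endothelial markers 0 passed the edgeR test with the block and 1 had an unadjusted p under 0.05 (70.1 to 182 against 90.4 to 167 CPM in controls).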

How the data were processed

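Gene counts of 6 libraries (3 control, 3 knockdown) were analysed as the authors deposited them: whole-number counts per gene, not normalized. The submitters' processing notes list TopHat2, HTSeq, Trimmomatic, edgeR, DESeq2 and build mm9, without versions. The sources used here do not state the annotation or the strand setting. The members, lists and tests were chosen with earlier results of these data known.

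Rows that name no gene were left out (per library, 12.1% to 15.0% of all counts without a feature, 0.406% to 0.509% ambiguous and 16.0% to 19.3% not uniquely aligned). Genes were kept with edgeR's filterByExpr (minimum count 10, total 15), scaled by TMM and tested with edgeR 4.0.16 (quasi-likelihood, R 4.3.3), group alone, Benjamini-Hochberg threshold 0.05. Standard errors are log2 fold changes over the root of the F statistic. A further model with replicate number as a block was fitted because same-numbered libraries deviated together (correlations 0.772, 0.709 and 0.701). Libraries of unequal number gave −0.532 to −0.135. Deviations from a group mean cancel within the group, so these negative values follow from the positive ones and are no separate contrast. The numbers come from the labels, which state no shared litter or culture, so p-values may measure technical spread. Replicates differed by more than counting noise. CPM per kilobase used union exon lengths of GENCODE M21 (GRCm38), matched for all 38 members. The same annotation gave the opposite-strand and same-strand overlaps.

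Every member past an unadjusted p of 0.05 in either fit, and every gene of the related lists past the adjusted threshold, is named with its values. The test script was tested on simulated data. Alternatives were other scalings, filters, DESeq2 1.42.0, limma-voom 3.58.1, the block, and leaving out each library or pair. Each promoter window was matched to members by symbol, and for Egr2 the window shown is 1 of 3 that tie for the most matches.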

Additional observations from a re-analysis of the deposited data

How the results depend on the processing

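Under 22 alternatives the median log2 fold change of the members stayed negative, between −0.25 and −0.05, and was nearest to 0 without control replicate 1. The number of members called, 0 without the block, depended on the model. It was 3 with DESeq2, 7 with the replicate block, 7 with the block and either relative log expression or upper-quartile factors, 5 with the block and library totals, 9 with the block and no filter, and 14 with the block and DESeq2. It ranged from 0 to 5 when libraries or pairs were left out. All other alternatives without the block called 0. The number of genes called among all genes was 1256 with the block, 3440 with the block and DESeq2, 1598 with the block and no filter, and 568 with DESeq2 alone, and the median of all genes under library totals was 0.09. The cause of these differences was not tested.

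Klf4, Fosl1, Fosl2, Nptx1, Inhba, Jund and Btg2 kept their direction in every alternative, as did 26 of the 38 members. The 12 members that changed direction were called in none of the alternatives concerned. Dusp4 (0.00) became −0.015 with relative log expression and with DESeq2, −0.014 with no filter, −0.0050 with limma-voom and −0.0064 with the block. With the block it became −0.023 with relative log expression, −0.023 with DESeq2 and −0.020 with no filter. With the block and library totals Npas4 became 0.018 and Nptx2 0.0081. Leaving out libraries gave −0.69 to 0.071 for Fos, −0.33 to 0.19 for Npas4, −0.63 to 0.50 for Atf3, −0.0045 to 0.56 for Maff, −0.11 to 0.41 for Per1, −0.053 to 0.26 for Dusp1, −0.17 to 0.21 for Dusp4, −0.12 to 0.44 for Btg1, −1.01 to 0.073 for Ier3, −0.17 to 0.32 for Arc, −0.072 to 0.24 for Homer1 and −0.30 to 0.30 for Nptx2. With 3 libraries a group, an exact two-sided permutation test of a single gene cannot go below p = 0.1. Depth did not limit the members, whose lowest count was 51, but at 6 members under 5 CPM in the control mean counting noise adds to the spread. In the knockdown mean Fosl1 (3.38), Egr2 (3.82) and Egr3 (1.49 CPM) also lay under 5 CPM. The knockdown came from 1 hairpin.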
